A study of Mus musculus with 12 samples.

Results

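The genes described here code for chaperones, their helpers and the folding and quality control proteins of the endoplasmic reticulum (ER). They were chosen by name: a row of the deposited table is a member if its symbol belongs to a fixed set of families, among them the heat shock proteins (Hsp), J-domain proteins (Dnaj), chaperonin subunits (Cct), BAG proteins, protein disulfide isomerases (Pdia) and ER degradation factors (Edem, Derl, Sel1l). Of 15154 rows 86 matched, with 29 ER, 48 cytosolic, 6 mitochondrial and 3 unassigned members. The rule uses no measured value. The RNA came from colonocytes of C57BL/6 mice, the epithelium of the large intestine, and was measured on Illumina bead arrays. The 6 CONV samples came from conventionally raised mice, which carry a gut microbiota, and the 6 GF samples from mice kept germfree in isolators. Each group had 3 samples (replicates 1 to 3) in batch 1 and 3 (replicates 4 to 6) in batch 2, and the labels give no age, sex or mutation, nor what a batch was.

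Chaperones bind unfolded proteins and help them to fold. In the cytosol Hsp70 proteins work with J-domain proteins, which deliver substrates and stimulate their ATPase, with nucleotide exchange factors such as the BAG proteins, and with Hsp90, and many of these genes are switched on by heat shock factor HSF1. In the ER the Hsp70 protein BiP (Hspa5), the Hsp90 protein GRP94 (Hsp90b1), lectin chaperones and disulfide isomerases fold secreted and membrane proteins. When unfolded proteins accumulate there, the sensors ATF6, IRE1 (Ern1) and PERK start the unfolded protein response, in which ATF6 and the spliced form of XBP1 raise transcription of ER chaperones. The gut epithelium, whose goblet cells secrete large amounts of mucin, depends on this response.

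The DNA element through which ATF6 and XBP1 act on many ER chaperone genes is the ER stress response element (ERSE), and its matches in the members' promoters are shown first because all of them lie in ER members. It was searched for as CCAAT and CCACG separated by 9 bases of any kind, on both strands, in RefSeq windows of GRCm38.p6 that run from 250 bases before to 50 bases after each gene's start. It was present in 37 of 27025 genes (0.137%) and in 6 of the 25 ER members with a window (24.0%), against 0 of 39 cytosolic and 0 of 4 mitochondrial members. The stretches below carry each match with 12 bases on either side, 5′ to 3′ on the gene's strand, with the fixed letters of the element in capitals. A match read on the opposite strand shows as CGTGG followed by ATTGG.
Hsp90b1, upstream match: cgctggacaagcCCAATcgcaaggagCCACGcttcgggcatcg
Hsp90b1, downstream match: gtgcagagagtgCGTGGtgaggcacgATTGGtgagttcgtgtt
Creld2: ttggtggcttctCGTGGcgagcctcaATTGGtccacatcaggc
Hspa5: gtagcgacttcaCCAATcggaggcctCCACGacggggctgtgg
Canx: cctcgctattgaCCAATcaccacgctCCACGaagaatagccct
Dnajc3: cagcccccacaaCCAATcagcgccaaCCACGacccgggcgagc
Derl3: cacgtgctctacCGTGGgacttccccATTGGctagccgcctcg

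Of the genes with a match, Hsp90b1 and Creld2 fell in GF colonocytes, Hspa5 and Canx did not pass the test, and Dnajc3 (row Dnajc3a) and Derl3 were detected on too few arrays to be tested. The Dnajc3a row, which joins several probes, had levels of 8.01 to 8.45 in batch 2 and was detected there on 1 array. The whole windows of the pair that fell are given so that the position of the element can be seen. That of Hsp90b1 (chr10:86705395-86705694, minus strand) holds matches at -212 to -194 and at -107 to -89 from the start.
Hsp90b1 promoter: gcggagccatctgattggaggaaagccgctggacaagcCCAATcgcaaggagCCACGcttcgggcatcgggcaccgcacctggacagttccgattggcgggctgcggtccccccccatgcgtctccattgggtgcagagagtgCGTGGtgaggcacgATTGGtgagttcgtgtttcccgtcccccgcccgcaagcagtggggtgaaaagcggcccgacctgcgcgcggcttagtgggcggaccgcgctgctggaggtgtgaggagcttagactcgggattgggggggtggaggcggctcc
The window of Creld2 (chr15:88819396-88819695, plus strand) holds a single match at -126 to -108.
Creld2 promoter: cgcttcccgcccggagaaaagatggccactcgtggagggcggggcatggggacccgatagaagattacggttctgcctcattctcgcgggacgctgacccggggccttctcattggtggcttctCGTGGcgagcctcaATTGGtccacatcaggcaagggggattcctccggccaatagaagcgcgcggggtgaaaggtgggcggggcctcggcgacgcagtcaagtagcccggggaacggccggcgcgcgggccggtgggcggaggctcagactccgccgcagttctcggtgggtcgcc
A match is a description of these letters and was not tested as a binding site. The related element ERSE-II (ATTGG and CCACG separated by 1 base, sharing its CCACG with ERSE) was in 12 genes (0.044%) and in 0 members. Of the 86 members 71 had a window, and Hspa8, Hsp90aa1, Hsp90ab1 and Hyou1 are among those without an entry.

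The heat shock element, searched for on both strands as GAA, TTC and GAA, each separated by 2 bases, was in 179 genes (0.662%) and in 2 members, Dnajb6 and Hspd1. These are 1 of 39 cytosolic and 1 of 4 mitochondrial members with a window, against 0 of 25 ER members. They are shown, in the same form, because the cytosolic results below turn on heat shock genes. Neither is among the cytosolic members that rose. Only this exact form within the window was searched for, so a missing match does not show that a gene lacks the element.
Dnajb6 (chr5:29735648-29735947, plus strand, -46 to -34): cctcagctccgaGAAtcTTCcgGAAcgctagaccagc
Hspd1 (chr1:55087883-55088182, minus strand, -139 to -127): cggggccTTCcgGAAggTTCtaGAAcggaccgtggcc
The Hspd1 stretch holds 2 overlapping matches, and its capitals mark both. Dnajb6 did not pass the test (0.15 ± 0.07 on the log2 scale) and Hspd1 fell.

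The arrays of batch 1 detected 7090 to 7402 rows each and those of batch 2 detected 6089 to 6470, where detected means a detection p below 0.05. Pearson correlations across genes, which are not independent replicates, lay between 0.994 and 0.998 within a group in batch 1 and between 0.979 and 0.990 in batch 2, so batch 2 had the wider spread. The first principal component of the 12 arrays carried 83.1% of the variance. Once the batch means were removed, the leading component (42.5%) separated the groups. On it GF replicate 5 (7.68) lay nearer to the CONV samples than GF replicates 4 and 6 did (16.1 and 15.3). The colonocyte label was checked on 5 marker genes, all of which passed the filter. Krt8 and Vil1 were detected on all 12 arrays, but Krt20 and Tacstd1 (now Epcam) each on only 3 CONV and 3 GF arrays. Mean levels of Krt20 were 4.89 in CONV and 4.78 in GF in batch 1, and 13.13 and 12.77 in batch 2. Those of Tacstd1 were 6.08 and 6.38 in batch 1, and 5.04 and 5.08 in batch 2. The list therefore does not back the label evenly on all arrays. Aqp8 was lower in GF (-0.83 ± 0.26, adjusted p = 0.0397). The goblet cell and cell cycle markers moved with the groups too and are given beside the results.

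A gene was tested if its row was detected on at least 3 arrays, which 64 of the 86 members met. Of the other 22, 17 were detected on 0 arrays and 5 on 1 array. They include Dnaja1, Edem1, Edem3, Derl1, Derl3, Dnajc10 and Hsf4. Tested without the filter, 0 of the 22 passed, with a smallest adjusted p of 0.0915 for Dnajc10. The Dnajc10 row joins several probes, so its 0 detections do not show that the gene was silent. It lay between 4.63 and 4.77 in batch 1. In batch 2 it lay between 10.98 and 11.10 in CONV and between 10.35 and 10.68 in GF, without overlap. A difference is the log2 level in GF less that in CONV, given with the standard error (SE) from a limma fit over 6 GF and 6 CONV arrays with batch as a term. P-values are two-sided and adjusted by Benjamini-Hochberg over all 8107 genes tested, with a threshold of 0.05. Levels are normalized log2 intensities, which depend on the probe and are not compared between genes.

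In GF colonocytes 17 of the 64 tested members changed, 8 higher and 9 lower. This is close to the share of all genes, since 23.3% of the genes tested were called (11.3% higher and 12.0% lower). Over both batches the direction of the calls differed by compartment, and the batches are given apart below. Of 21 ER members 1 rose, 5 fell and 15 did not pass, with a median of -0.08. Of 35 cytosolic members 7 rose, 3 fell and 25 did not pass, with a median of 0.06. Of the 6 mitochondrial members 1 fell, and the median over all genes was 0.01. The contrast between the compartments was not tested.

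**Figure D1:**
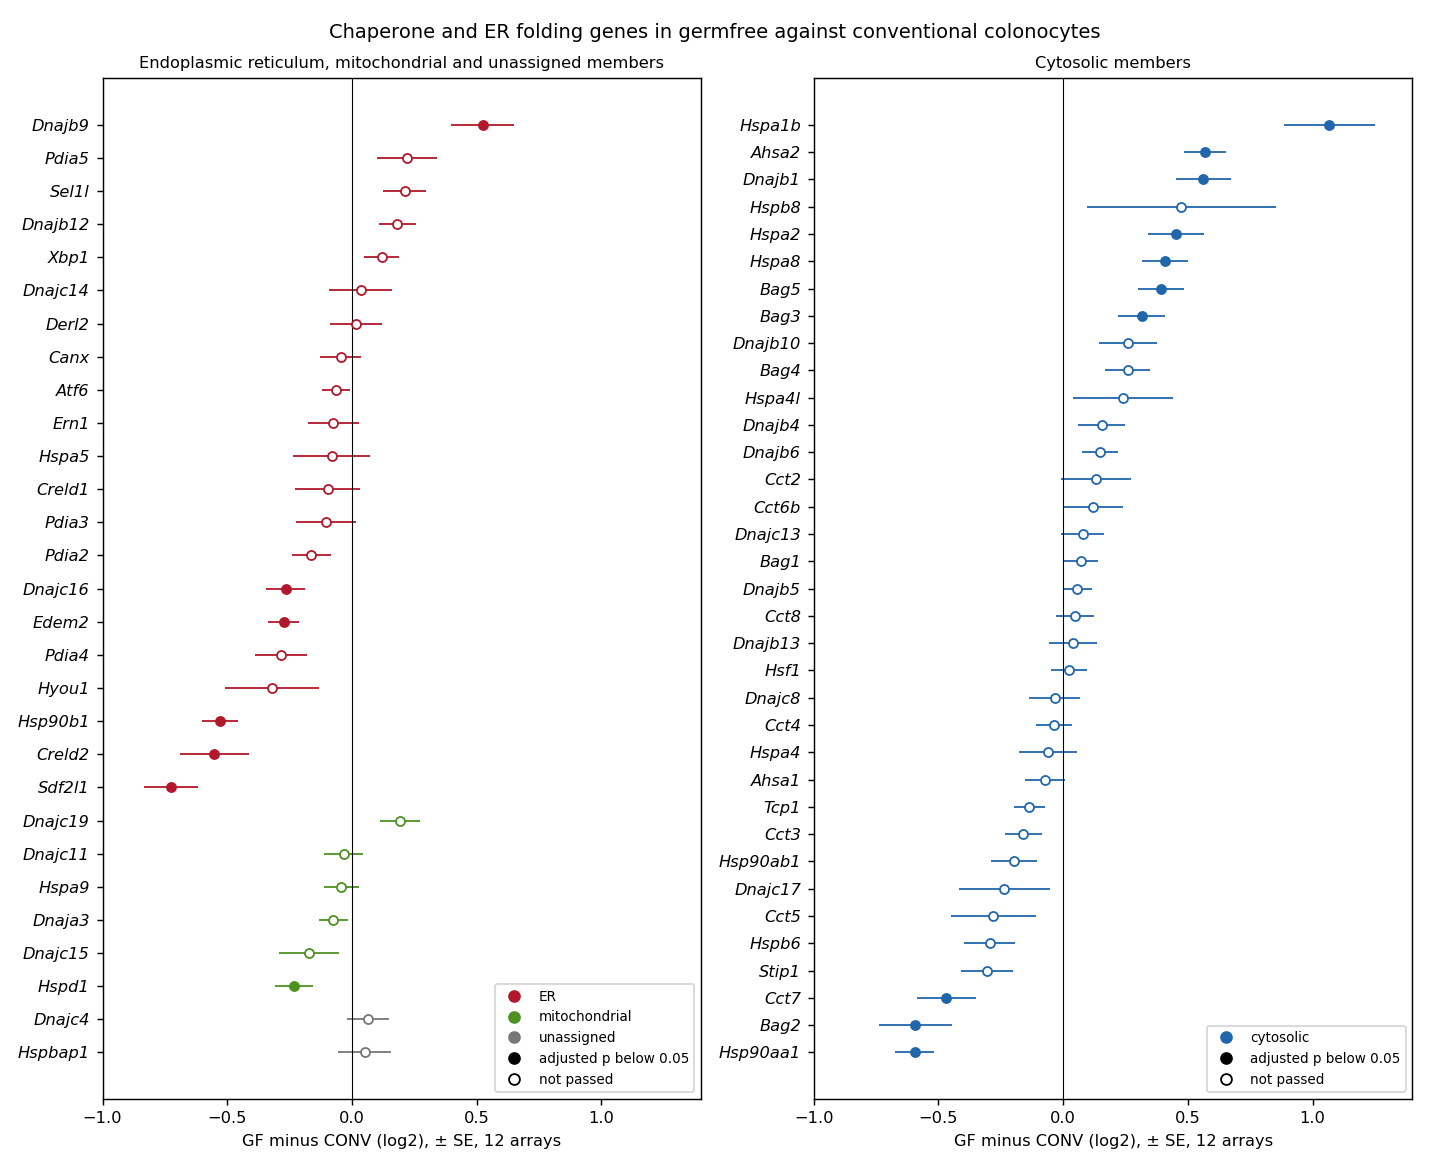
GF minus CONV (log2, x axis) with its SE for each of the 64 tested members, ER, mitochondrial and unassigned members on the left and cytosolic members on the right. Filled points have an adjusted p below 0.05. Sdf2l1, Creld2 and Hsp90b1 lie lowest among the ER members (-0.73, -0.55 and -0.53), and Hspa1b lies highest among the cytosolic ones (1.07).

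Within the ER, the lumenal chaperones held the 3 largest falls. Over both batches all 7 tested genes of this list had a difference below 0, as had 3954 of all 8107 genes. Of the 7 genes 3 passed the test, where 12.0% of all genes fell, and the list's median was -0.32. In batch 1 alone 4 of the 7 lay below 0 with a median of -0.05, and in batch 2 alone 7 did with a median of -0.59. Hsp90b1 codes for GRP94, the Hsp90 of the ER, which folds integrins and Toll-like receptors. Its level in batch 1 was 12.18, 12.35 and 12.36 in the CONV samples and 11.86, 11.72 and 11.90 in the GF samples. In batch 2 it was 12.995, 12.77 and 12.88 in CONV and 12.13, 12.33 and 12.41 in GF. Every GF sample lay below every CONV sample of its batch. The difference was -0.53 ± 0.07 (adjusted p = 0.000387), with -0.47 in batch 1 and -0.59 in batch 2.

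Sdf2l1 codes for a partner of BiP and its J-domain proteins that keeps unfolded clients soluble. In batch 1 its level was 8.73, 8.68 and 8.79 in CONV against 7.98, 8.06 and 8.02 in GF, and in batch 2 it was 8.55, 9.13 and 9.29 against 8.30, 8.34 and 8.12. The groups did not overlap in either batch, although CONV replicate 4 lay close to the GF samples. The fall of -0.73 ± 0.11 (adjusted p = 0.000559) corresponds to a 1.65-fold higher level in CONV, and the batches gave -0.72 and -0.74.

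Creld2, an ER stress-inducible protein with disulfide isomerase activity, fell by 0.55 (SE 0.14, adjusted p = 0.0132). Its levels in batch 1 were 10.45, 10.41 and 10.48 in CONV and 10.23, 10.08 and 10.20 in GF. In batch 2 they were 10.06, 10.10 and 10.71 in CONV and 9.27, 9.73 and 9.41 in GF. Here too the groups did not overlap, but CONV replicate 6 stood well above the other CONV samples of its batch. Without that sample the difference was -0.43, and with array weights it was -0.32.

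The other lumenal chaperones did not pass. Hspa5 codes for BiP, the central Hsp70 of the ER and the usual readout of the unfolded protein response. Its levels were 8.12, 7.76 and 7.89 in CONV and 7.999, 8.14 and 8.10 in GF in batch 1, and 6.70, 6.95 and 6.68 against 5.91, 6.91 and 6.56 in batch 2. The groups overlapped in both batches, with a difference of -0.08 ± 0.16 (adjusted p = 0.751). GF replicate 4 stood low, and without it the difference was 0.07. Canx, the membrane-bound lectin chaperone calnexin, differed by -0.04 ± 0.08 and was detected on 0 of the 6 arrays of batch 2, where its levels were 4.65 to 5.11. Creld1 differed by -0.10 ± 0.13.

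**Figure D2:**
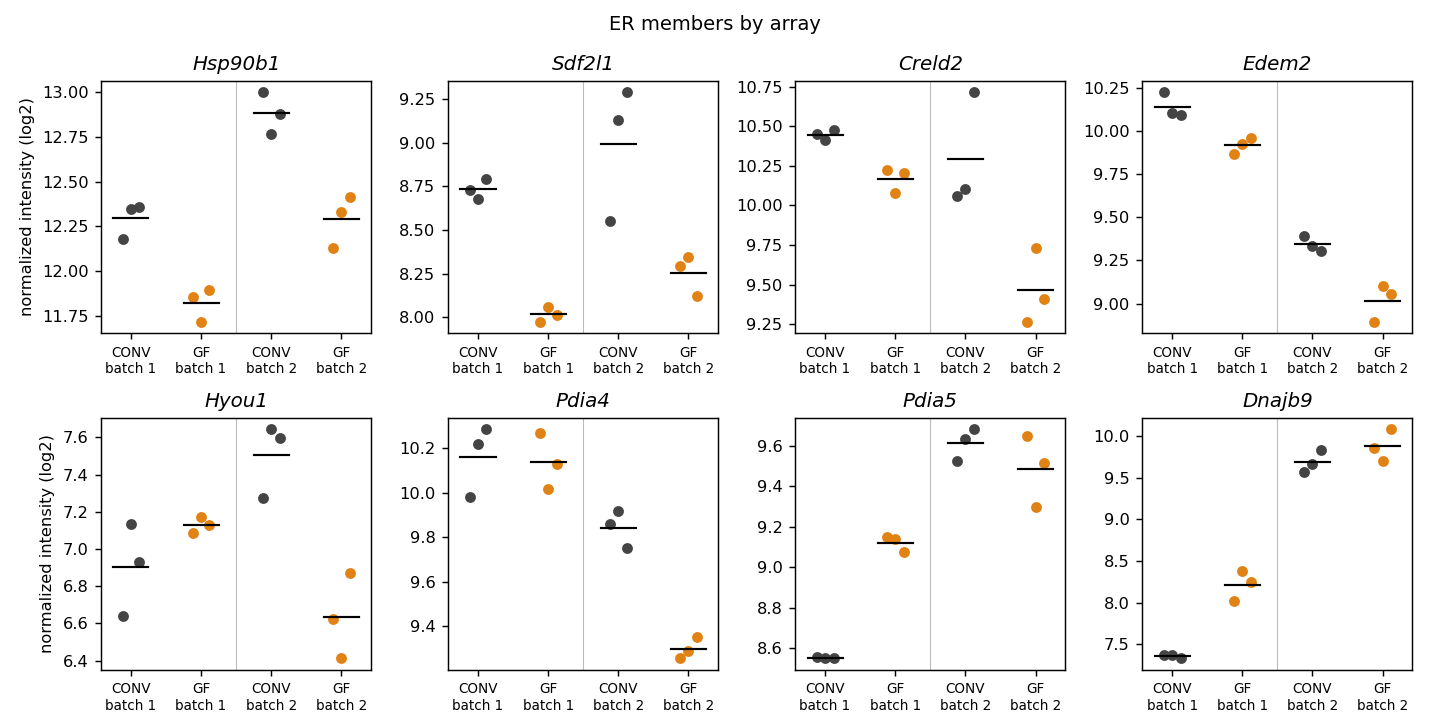
Normalized log2 intensity (y axis) of 8 ER members in each array, with CONV samples in grey, GF samples in orange, and a line at the mean of the 3 samples of a group and batch. Hsp90b1, Sdf2l1, Creld2 and Edem2 lie lower in GF in both batches, whereas Hyou1, Pdia4, Pdia5 and Dnajb9 separate the groups in 1 batch.

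Among the ER degradation factors, which pull misfolded proteins out for destruction, 3 of 8 rows could be tested. Edem2, a mannosidase that starts the trimming of N-glycans on misfolded glycoproteins, fell by 0.27 (SE 0.06, adjusted p = 0.00695). Its level was 10.22, 10.10 and 10.09 in CONV against 9.87, 9.92 and 9.96 in GF in batch 1, and 9.39, 9.33 and 9.31 against 8.90, 9.10 and 9.05 in batch 2. The groups did not overlap in either batch. Sel1l, the adaptor of the HRD1 ubiquitin ligase, differed by 0.21 ± 0.09 (adjusted p = 0.0969) and Derl2 by 0.02 ± 0.10.

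The J-domain proteins of the ER went both ways. Dnajb9 (ERdj4), an unfolded protein response gene whose product in mouse cells holds IRE1 in check, was the ER member that rose, by 0.52 ± 0.13 (adjusted p = 0.0113). Its levels in batch 1 were 7.37, 7.37 and 7.33 in CONV and 8.02, 8.38 and 8.25 in GF, without overlap. In batch 2 they were 9.57, 9.66 and 9.84 in CONV and 9.86, 9.70 and 10.08 in GF, which overlapped. The difference was 0.86 in batch 1 and 0.19 in batch 2, and the batches differed (adjusted p = 0.0327).

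Dnajc16, an ER membrane J-domain protein, fell by 0.27 (SE 0.08, adjusted p = 0.0277). Its levels were 8.54, 8.37 and 8.40 against 8.19, 8.17 and 8.17 in batch 1, CONV first, and 7.93, 8.20 and 7.91 against 7.95, 7.67 and 7.62 in batch 2. The call was lost in 6 of the 12 fits that left out 1 array, where the adjusted p reached 0.0611. Dnajb12, a membrane-anchored J-domain protein, differed by 0.18 ± 0.07 and Dnajc14 by 0.04 ± 0.13, and neither passed.

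The protein disulfide isomerases, which form and shuffle disulfide bonds, gave 0 of 4 calls over both batches. Pdia3 (ERp57), the partner of calnexin for glycoproteins, had levels of 12.32, 12.09 and 12.12 in CONV and 12.24, 12.38 and 12.49 in GF in batch 1. The levels in batch 2 were 12.76, 12.57 and 12.40 against 12.03, 12.35 and 12.13. Its difference of -0.10 ± 0.12 came from 0.20 in batch 1 and -0.41 in batch 2, and it turned to 0.14 with array weights. Pdia2, best known from the pancreas, differed by -0.16 ± 0.08. Pdia4 and Pdia5 are taken up with the batches below.

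Of the sensors and transcription factors of the unfolded protein response 0 of 3 passed. Xbp1, which codes for the factor made by IRE1-dependent splicing, had levels of 12.94, 12.78 and 12.82 in CONV and 13.08, 13.02 and 13.11 in GF in batch 1. In batch 2 they were 12.44, 12.63 and 12.71 against 12.55, 12.62 and 12.65. The difference was 0.12 ± 0.07 (adjusted p = 0.248). The rows hold total transcript and cannot tell spliced from unspliced Xbp1. Atf6 differed by -0.06 ± 0.05 and Ern1 by -0.07 ± 0.10. In batch 2 Atf6 was detected on 0 arrays, at levels of 4.89 to 5.10, and Ern1 on 1 GF array. Both rows join several probes. A row named Crebl1, now Atf6b, is no member by its deposited name and was lower (-0.29 ± 0.07, adjusted p = 0.00956). The same holds for the row 1500019G21Rik, now Hspbp1 (-0.39 ± 0.11, adjusted p = 0.0179). Other rows of this kind did not pass or were not tested.

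The arrays measured whole colonocyte preparations, in which fewer cells of a type and less RNA per cell cannot be told apart. Goblet cells are rich in ER. Of 5 tested goblet cell markers 3 were higher (Tff3, Spdef and the row 1810010M01Rik) and Clca3 was lower. The summed intensity of the goblet list in batch 1 ran from 26563 to 28389 in CONV and from 48273 to 51269 in GF. In batch 2 it ran from 65604 to 70381 in CONV and from 60895 to 72135 in GF, so the sum moved with the group in batch 1 and not in batch 2. A sum follows the brightest rows, and in batch 1 Clca3 was lower (-0.79) and Agr2 did not pass (-0.11). The brightest row, 1810010M01Rik, lay between 15.06 and 15.20 on all arrays of batch 2. Its level of 15.17 was the same in CONV replicates 5 and 6 and GF replicates 4 and 6. Of 7 plasma and B cell marker rows 3 were detected on no array, and only Sdc1 was tested (0.21 ± 0.08, adjusted p = 0.0983). The list's sum was 512 to 553 in CONV and 549 to 568 in GF in batch 1, and 466 to 537 against 502 to 601 in batch 2. Of the cell cycle markers Mcm5 (-0.96 ± 0.11) and Top2a (-0.65 ± 0.11) were lower, and the stem cell marker Lgr5 was higher (0.78 ± 0.13). Of 5 enteroendocrine markers 2 were higher, of 4 Paneth and deep crypt markers 1 was higher, of 3 macrophage markers 1 was higher and 1 lower, and of 2 T cell and 3 stromal markers 0 passed. The part of these cell types in the chaperone differences was not tested.

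In the cytosol 3 of 5 tested genes of the Hsp70 and Hsp110 list rose over both batches, where 11.3% of all genes rose. Of the list 0 fell, and its median was 0.41. In batch 1 alone 4 of these genes rose, and in batch 2 alone 0 were called. Hspa1b, an inducible Hsp70 that is the classical heat shock gene, rose by 1.07 ± 0.18, or 2.10-fold (adjusted p = 0.0015). Its level in batch 1 was 7.13, 7.16 and 7.08 in CONV and 8.52, 8.70 and 8.50 in GF. In batch 2 it was 5.82, 6.34 and 5.98 in CONV and 6.71, 6.22 and 7.26 in GF. The groups were wide apart in batch 1, and in batch 2 they overlapped through GF replicate 5. The neighbouring gene Hspa1a is nearly identical in sequence, so the row may hold signal of either gene. The difference depended on the background correction. It was 0.69 without one and 0.38 when the background was estimated from all rows, joined rows included, a setting chosen after seeing the data.

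Hspa8, the constitutive Hsc70 that also uncoats clathrin vesicles, rose by 0.41 ± 0.09 (adjusted p = 0.00748). Its levels were 13.86, 13.71 and 13.66 in CONV against 13.95, 14.10 and 13.99 in GF in batch 1, and 12.65, 12.56 and 12.22 against 12.90, 13.02 and 13.14 in batch 2. Every GF sample lay above every CONV sample of its batch. Hspa2, an Hsp70 best known from the testis, rose by 0.45 ± 0.11 (adjusted p = 0.0133). Its levels were 6.47, 6.98 and 6.92 against 7.25, 7.34 and 7.41 in batch 1 and 6.55, 6.41 and 6.62 against 7.20, 6.85 and 6.61 in batch 2, CONV first. It overlapped in batch 2, and was 0.26 without background correction and 0.10 with the background from all rows. Hspa4 (-0.06 ± 0.12) and Hspa4l (0.24 ± 0.20), both Hsp110 proteins, did not pass.

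Of 9 tested genes of the cytosolic J-domain list 1 rose, which is near the share of all genes (11.3%). Dnajb1 (Hsp40), the main heat-inducible partner of Hsp70, rose by 0.56 ± 0.11 (adjusted p = 0.00354). Its level was 11.27, 11.24 and 11.39 in CONV against 12.13, 12.09 and 12.31 in GF in batch 1. In batch 2 it was 11.88, 11.98 and 11.76 against 12.11, 12.12 and 12.12. The groups did not overlap in either batch, but the gap narrowed, from 0.88 to 0.24. The other 8 tested genes, among them Dnajb4, Dnajb6 and Dnajc13, lay between -0.24 and 0.26.

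Of the nucleotide exchange and BAG proteins 2 of 5 rose and 1 fell, where 11.3% of all genes rose and 12.0% fell. Bag3, an HSF1 target that pairs Hsp70 with small heat shock proteins in selective autophagy, rose by 0.31 ± 0.09 (adjusted p = 0.0310). Its levels in batch 1 were 10.97, 10.93 and 10.96 in CONV and 11.52, 11.52 and 11.53 in GF. In batch 2 they were 11.92, 12.10 and 11.98 against 12.09, 12.17 and 11.92 and overlapped. The call was lost in 6 of 12 fits without 1 array, with an adjusted p of up to 0.0752, each time without a sample of batch 1.

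Bag5, a BAG protein with several BAG domains, rose by 0.39 ± 0.09 (adjusted p = 0.00945). Its levels were 5.13, 5.21 and 5.14 against 5.44, 5.49 and 5.76 in batch 1 and 6.79, 7.35 and 7.07 against 7.42, 7.42 and 7.51 in batch 2, CONV first, with no overlap. Bag2, an inhibitor of the ubiquitin ligase CHIP, fell by 0.59 (SE 0.15, adjusted p = 0.0120). Its levels were 5.81, 5.46 and 5.44 against 5.37, 5.07 and 5.33 in batch 1 and 5.41, 5.31 and 6.03 against 4.82, 4.71 and 4.61 in batch 2. Both are dim genes. Bag2 was detected on 0 of the 3 GF arrays of batch 2. Without background correction the differences were 0.22 for Bag5 and -0.36 for Bag2, and with the background from all rows they were 0.07, no longer called, and -0.06. With array weights Bag2 gave -0.27. Bag1, the brightest BAG gene row, differed by 0.07 ± 0.07 and its levels lay between 13.64 and 14.15 on all 12 arrays. Bag4 differed by 0.26 ± 0.09 (adjusted p = 0.0545).

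**Figure D3:**
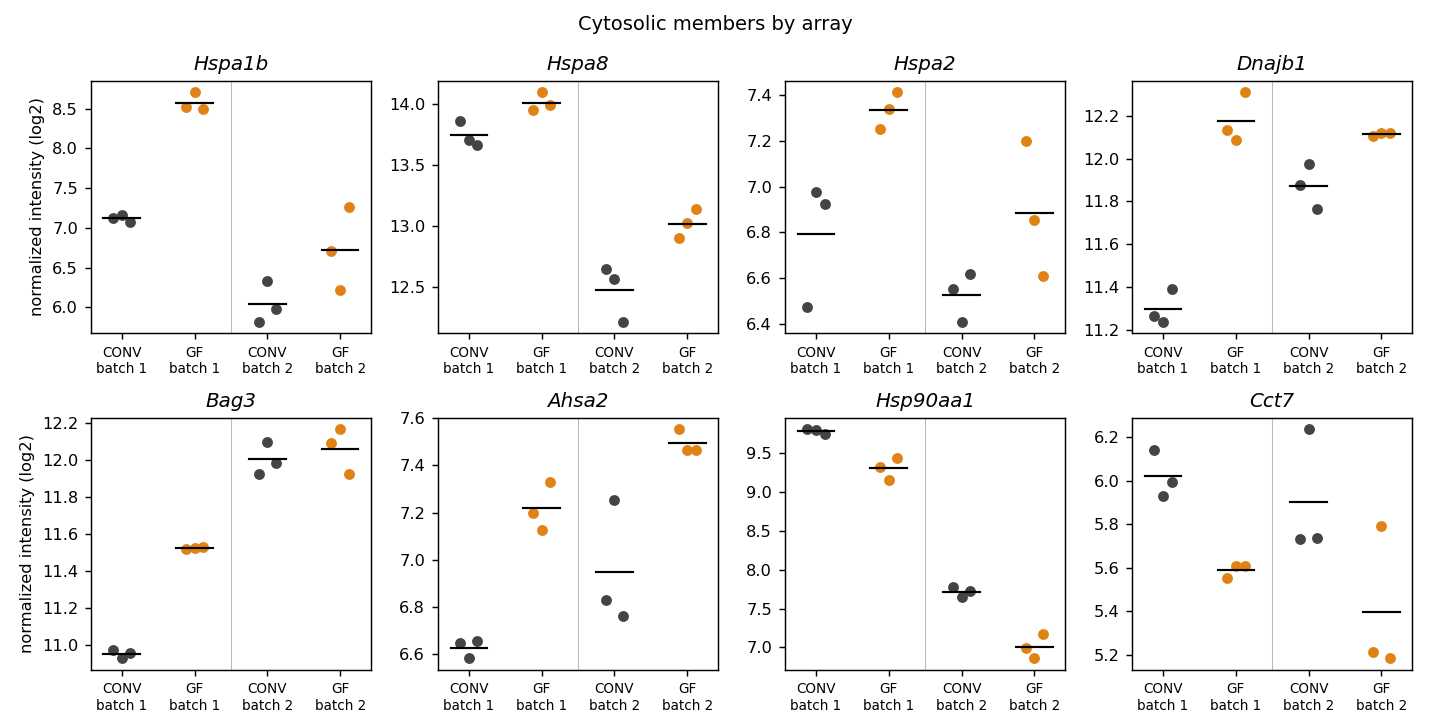
Normalized log2 intensity (y axis) of 8 cytosolic members in each array, drawn as for the ER members. Hspa8, Dnajb1 and Ahsa2 are higher in GF in both batches without overlap, Hsp90aa1 is lower in both, and Hspa1b, Hspa2, Bag3 and Cct7 overlap in batch 2.

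Hsp90 and its helpers did not move as a block. Hsp90aa1, the inducible cytosolic Hsp90, had the smallest p of all 64 members and fell by 0.60 (SE 0.08, adjusted p = 0.000254). Its levels were 9.81, 9.80 and 9.75 in CONV against 9.32, 9.16 and 9.44 in GF in batch 1, and 7.78, 7.65 and 7.73 against 7.00, 6.86 and 7.18 in batch 2. No GF sample reached a CONV sample of its batch, and the gene was also called in batch 2 alone (-0.71 ± 0.12, adjusted p = 0.0363). Its row joins several probes and passed detection on 4 GF and 4 CONV arrays. From the values as deposited the difference was -0.39.

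Hsp90ab1, the constitutive cytosolic Hsp90, had levels of 12.23, 12.20 and 12.23 in CONV and 12.30, 12.26 and 12.19 in GF in batch 1. Batch 2 gave 11.79, 11.87 and 11.98 against 11.28, 11.57 and 11.52. The groups overlapped in batch 1 and were apart in batch 2, and the difference of -0.20 ± 0.09 did not pass (adjusted p = 0.147). Ahsa2, related to the Hsp90 ATPase activator AHA1, rose by 0.57 ± 0.08 (adjusted p = 0.000563). Its levels were 6.65, 6.58 and 6.66 against 7.20, 7.13 and 7.33 in batch 1 and 6.83, 7.26 and 6.76 against 7.55, 7.47 and 7.47 in batch 2, without overlap. It was 0.34 without background correction and 0.14 with the background from all rows. Ahsa1, the activator itself, differed by -0.07 ± 0.08, and Stip1 (HOP), which hands clients from Hsp70 to Hsp90, by -0.31 ± 0.10 (adjusted p = 0.0526).

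The chaperonin TRiC, a ring of 8 kinds of subunit that folds actin and tubulin, had 1 call among 8 tested rows. Cct7 fell by 0.47 (SE 0.12, adjusted p = 0.0138). Its levels were 6.14, 5.93 and 6.00 against 5.55, 5.61 and 5.61 in batch 1 and 5.73, 6.24 and 5.74 against 5.21, 5.79 and 5.18 in batch 2, CONV first, with overlap in batch 2. The fall was -0.22 without background correction and -0.05 with the background from all rows. Cct4, the brightest TRiC row, had 12.73, 12.68 and 12.70 against 12.57, 12.48 and 12.55 in batch 1 and 11.99, 11.90 and 11.69 against 11.98, 11.92 and 11.97 in batch 2. Its difference was -0.04 ± 0.07. Cct5 was lower in batch 1 alone (-0.65, adjusted p within the batch 0.000998) and differed by 0.09 in batch 2. Over both batches it did not pass (-0.28 ± 0.17), but did without GF replicate 6 (-0.42, adjusted p = 0.0403).

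Among the remaining cytosolic members nothing passed. The heat shock factor Hsf1 had levels of 10.00, 9.90 and 9.98 in CONV and 10.03, 9.85 and 9.78 in GF in batch 1, and 9.69, 9.84 and 9.95 against 9.98, 9.93 and 9.92 in batch 2. Its row joins several probes and was called detected on the 6 arrays of batch 1 and on 0 of batch 2, at like levels. Hsf1 differed by 0.02 ± 0.07. The small heat shock protein Hspb6 had 5.47, 5.50 and 5.43 against 5.31, 5.35 and 5.47 in batch 1 and 8.58, 8.85 and 9.01 against 8.45, 8.10 and 8.40 in batch 2. Its difference of -0.29 ± 0.10 missed the threshold (adjusted p = 0.0559). Hspb8, the partner of Bag3, differed by 0.47 ± 0.38, and a single CONV sample of batch 1 at 7.65 stood above the GF levels of 7.25 to 7.34 while the other 2 lay at 5.71 and 5.49.

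Of the mitochondrial members Hspd1, the chaperonin Hsp60 of the matrix, fell by 0.23 (SE 0.08, adjusted p = 0.0436). In batch 1 its levels were 12.17, 12.01 and 11.98 in CONV and 11.79, 11.82 and 11.78 in GF, and in batch 2 they were 11.33, 11.36 and 11.28 against 10.87, 11.14 and 11.32, with overlap. The call was lost without the detection filter (adjusted p = 0.0553) and in 9 of 12 fits without 1 array, where the adjusted p reached 0.0944. Hspa9 (mortalin), the mitochondrial Hsp70, had 11.35, 11.27 and 11.16 against 11.32, 11.30 and 11.28 in batch 1 and 12.94, 13.06 and 12.98 against 12.995, 12.71 and 12.90 in batch 2. It differed by -0.04 ± 0.07. The J-domain proteins Dnaja3, Dnajc11, Dnajc15 and Dnajc19, some of which serve protein import, lay between -0.17 and 0.19.

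The batches were also fitted apart. In batch 1 alone 15 members rose and 12 fell, 27 of 64, where 46.9% of all genes were called (23.3% higher and 23.6% lower). In batch 2 alone 0 rose and 2 fell (Hsp90aa1 and Hyou1), where 2.70% of all genes were called (1.10% higher and 1.60% lower), and 17 members had an unadjusted p below 0.05 against 19.4% of all genes. Both calls of batch 2 were lost when any 1 of its 6 arrays was left out. Of the 21 ER members 5 rose and 6 fell in batch 1 (median -0.02), and 0 rose and 1 fell in batch 2 (median -0.14). Below 0 lay 11 of them in batch 1 and 15 in batch 2, against 3982 and 3925 of all 8107 genes. Of the 35 cytosolic members 9 rose and 5 fell in batch 1 (median 0.07), and 0 rose and 1 fell in batch 2 (median 0.06). The median SE of the members was 0.07 in batch 1 and 0.15 in batch 2. In batch 1 the groups did not overlap for 32 members (56.5% of all genes), and in batch 2 for 18 (26.2% of all genes). GF lay below CONV without overlap in both batches for 6 members, 4 of them ER (7.03% of all genes), and above for 4, all of them cytosolic (6.61% of all genes).

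The difference between the batches was itself past the threshold for 7 of 64 members, against 9.02% of all genes. In each of them GF minus CONV was lower in batch 2. The count was 3 or 4 when any 1 array of batch 1 or CONV replicate 5 was left out. For the heat shock genes Dnajb1 (0.88 and 0.24, adjusted p of the difference 0.0101) and Bag3 (0.57 and 0.06, adjusted p of the difference 0.0202) a rise shrank. The ER gene Dnajb9, given above, belongs here too. Dnajb10, now Dnajb2, a ubiquitin-binding J-domain protein, had levels of 9.38, 9.33 and 9.40 in CONV and 9.83, 9.94 and 9.99 in GF in batch 1. The batch 2 levels were 8.78, 9.24 and 8.98 against 9.03, 8.83 and 9.04 (0.55 and -0.03, adjusted p of the difference 0.0445).

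The other 3 are ER folding genes. Hyou1 (GRP170), a nucleotide exchange factor of BiP, had levels of 6.64, 7.14 and 6.93 in CONV and 7.09, 7.17 and 7.13 in GF in batch 1. In batch 2 it had 7.27, 7.64 and 7.60 in CONV and 6.63, 6.41 and 6.87 in GF. It overlapped in batch 1 (0.23) and was lower in GF in batch 2 (-0.87 ± 0.17, adjusted p within the batch 0.0444), and the batches differed by 1.09 (SE 0.21, adjusted p = 0.00947).

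Pdia4 (ERp72) had levels of 9.98, 10.22 and 10.28 in CONV and 10.27, 10.01 and 10.13 in GF in batch 1, and 9.86, 9.92 and 9.75 against 9.25, 9.29 and 9.35 in batch 2. It overlapped in batch 1 (-0.02) and lay apart in batch 2 (-0.54, adjusted p within the batch 0.0521, adjusted p of the difference 0.0445). Pdia5 had 8.56, 8.55 and 8.55 against 9.15, 9.14 and 9.08 in batch 1 and 9.52, 9.63 and 9.68 against 9.65, 9.30 and 9.51 in batch 2. It rose in batch 1 alone (0.57, adjusted p of the difference 0.00868) and differed by -0.13 in batch 2.

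**Figure D4:**
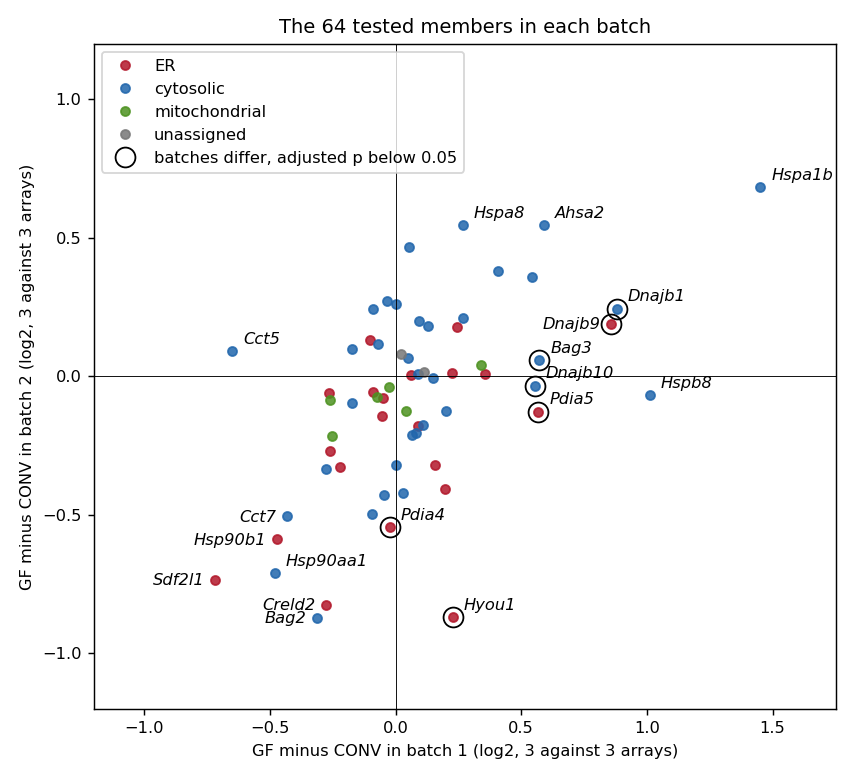
GF minus CONV (log2) in batch 1 (x axis, 3 against 3 arrays) and in batch 2 (y axis) for the 64 tested members, coloured by compartment. The 7 circled members differ between the batches and all lie below the diagonal. Hsp90b1, Sdf2l1, Creld2 and Hsp90aa1 lie at the lower left and Hspa1b, Ahsa2 and Hspa8 at the upper right.

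Genes of immediate-early induction and of the circadian clock moved with the group in batch 1. These 2 lists were added after the values were seen. Of 11 tested immediate-early genes 9 were higher and 1 lower in batch 1, and 0 were higher and 2 lower in batch 2. Fosb gave 4.00 and 0.50 and Egr1 2.03 and -0.02 in the 2 batches. The list's summed intensity was 13469 to 14414 in CONV and 25659 to 26213 in GF in batch 1, and 24991 to 26733 against 19285 to 30915 in batch 2. Of 6 tested clock genes 4 were higher and 2 lower in batch 1 and 0 passed in batch 2, with Dbp at 4.48 and 0.42. Their sum was 1905 to 2071 against 6238 to 6676 in batch 1 and 1828 to 2191 against 2513 to 2857 in batch 2. The time of day and the handling of the mice are not in the labels, and the part of either list in the heat shock gene values of batch 1 was not tested.

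Genes of the same pathways outside the members were read from 3 lists. The ER translocon, which threads new proteins into the ER, and the oligosaccharyltransferase, which attaches N-glycans, moved most evenly. Of 14 tested genes 7 fell and 0 rose, where 12.0% of all genes fell, and the median was -0.25. Stt3a, a catalytic subunit of the transferase, fell by 0.51 (SE 0.12, adjusted p = 0.0110), and its subunit Ddost by 0.41 (SE 0.10, adjusted p = 0.00835). Of the translocon Sec61g fell by 0.43 (SE 0.07, adjusted p = 0.00124), and the TRAP subunit Ssr3 fell by 0.42 (SE 0.10, adjusted p = 0.00938). The bright Stt3b (-0.14 ± 0.06) and Spcs3 (-0.22 ± 0.09) did not pass.

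Of 16 other ER folding and unfolded protein response genes 1 rose and 0 fell, with a median of -0.05. Herpud1, a stress-induced ER degradation factor, rose by 0.53 ± 0.15 (adjusted p = 0.0266), with 0.96 in batch 1 and 0.10 in batch 2. Of these 16 genes 7 differed between the batches, against 9.02% of all genes. Besides Herpud1 they were, with batch 1 first, Ddit3 (0.94 and -0.18), Atf4 (0.39 and -0.38) and Txndc5 (0.51 and -0.24). Also among them were Myd116, now Ppp1r15a (1.26 and -0.39), Chac1 (0.22 and -2.09) and Ern2 (0.05 and -0.40). Over both batches the disulfide isomerase P4hb (-0.09 ± 0.08) and Ern2, the gut epithelial IRE1 form (-0.18 ± 0.08), did not pass.

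Of 14 other heat shock and Hsp90 pathway genes 3 rose and 2 fell, where 11.3% of all genes rose and 12.0% fell. The median was -0.03. Fkbp5, an Hsp90 co-chaperone induced by glucocorticoids, rose by 0.98 ± 0.17 (adjusted p = 0.00175), with 1.19 and 0.77 in the batches. Chordc1, a heat-inducible Hsp90 partner, rose by 0.61 ± 0.09 (adjusted p = 0.000757), with 0.68 and 0.54. The related immunophilin Fkbp4 fell by 0.32 (SE 0.06, adjusted p = 0.00302), with -0.27 and -0.37. The myosin chaperone Unc45a fell by 0.24 (SE 0.08, adjusted p = 0.0347).

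**Figure D5:**
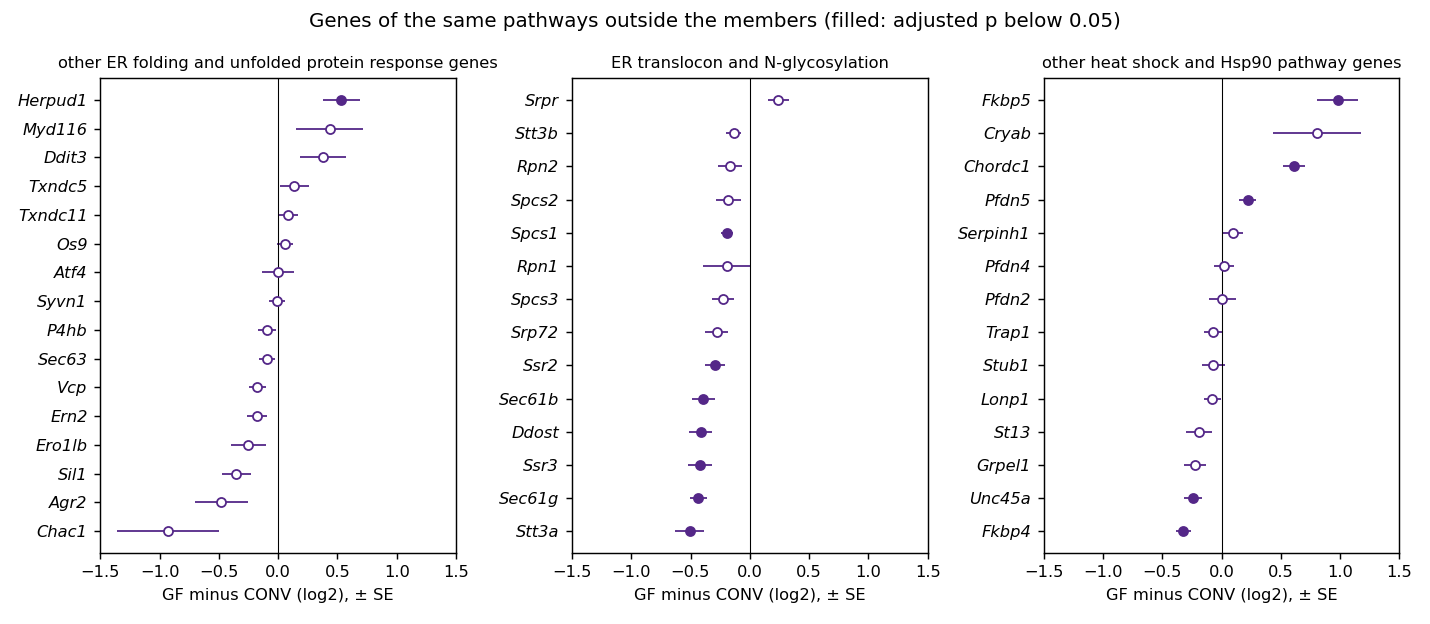
GF minus CONV (log2, x axis) with its SE over 12 arrays for the tested genes of 3 pathway lists outside the members. Filled points have an adjusted p below 0.05. In the translocon and N-glycosylation list 13 of 14 genes lie below 0, whereas the other lists spread to both sides.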

How the data were processed

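The labels gave group, replicate number and batch of the 12 samples. The values the authors deposited are natural logs of intensities, in rows named by gene symbol, with detection p-values deposited beside them. The sources used here do not give the array design or the genome build. Limma, with no version, is the tool in the submitters' processing notes. The series matrix held the same values for all 15132 shared rows. Values between the steps of the detection p (1 in 1603 and 1 in 936 for the batches) mark rows that join several probes, as 42 of 86 member rows do.

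Values were raised to base e, background corrected with normexp (offset 16), for which the negative controls' mean and spread were read from the detection p, then turned to log2 and quantile normalized (R 4.3.3, limma 3.58.1). Kept were rows detected (p below 0.05) on 3 or more arrays, 8107 genes, with symbols updated through the gene table of GRCm38.p6 and the brightest row standing for a gene. limma was fitted with batch and group, within each batch, and with their interaction. The design spoke of intensities, whereas the file held their logs. Members, lists and tests were chosen with earlier results of these data known. Values in every sample were given for the 16 members with the smallest p and the brightest of each list, and named genes also include members that differ between the batches. Hspd1, Hspa5, Hspb8 and Cct5 and the members named without array values were picked after their values were seen.

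The fits were tested on simulated data. Of 1.5-fold changes 86% were recovered over both batches, 88% in batch 1, 25% in batch 2 and 31% as a difference between the batches. For 2-fold changes the shares were 96%, 97%, 62% and 83%. A gene not called in batch 2 alone may therefore still differ there. Of 7907 unchanged genes 2 were called over both batches, beside 182 changed ones. The numbers were 12 beside 185 in batch 1 and 8 beside 87 in batch 2. For the difference between the batches they were 20 beside 114, so false calls were most numerous there. The number of arrays limits the precision. The labels call the samples biological replicates without naming the mice, so p-values measure the spread between these samples. Replicate numbers did not pair the samples. Alternatives were other background corrections, normalizations, filters, array weights, no batch term, a replicate block, the values as deposited and leaving out each array.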

Additional observations from a re-analysis of the deposited data

Results flagged for a closer look

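In 3 of 64 groups of 6 samples, with the batch mean removed, a single sample stood apart by Dixon's criterion, where chance gives about 1 in 20. Creld2 in CONV replicate 6 was high at 11.14, while the other CONV samples lay between 10.41 and 10.53. Hspa9 in GF replicate 5 was low at 11.06, while the others lay between 11.24 and 11.34. Hspa5 in GF replicate 4 was low at 7.29, while the others lay between 7.95 and 8.29. GF replicate 5 is also the GF sample nearest to the CONV samples on the leading component.

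For 7 members the difference between GF and CONV changed with the batch (limma interaction, adjusted p below 0.05). The change, batch 2 minus batch 1, was -1.09 for Hyou1 (adjusted p = 0.00947), -0.70 for Pdia5 (0.00868), -0.67 for Dnajb9 (0.0327), -0.63 for Dnajb1 (0.0101), -0.59 for Dnajb10 (0.0445), -0.52 for Pdia4 (0.0445) and -0.51 for Bag3 (0.0202). In the same arrays GF minus CONV of the immediate-early gene Fosb was 4.00 in batch 1 and 0.50 in batch 2, and that of the clock gene Dbp 4.48 and 0.42. Their part in the 7 changes was not tested, and what the batches stand for is not in the labels.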

How the results depend on the processing

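Of 731 values of named members under alternatives, 665 kept direction and side of the threshold, 41 lost the call, 16 gained it and 9 reversed. The reversed ones were small: with array weights Pdia3 0.14, Hsf1 -0.0068, Hspa9 0.0563, Hyou1 0.0306 and Hspa5 0.14, Hsf1 -0.0174 without CONV replicate 4, Hspa9 0.0011 without GF replicate 5, and Hspa5 0.0663 without GF replicate 4 and 0.0132 with normexp on all rows. Over the fits without 1 array Hspa5 lay between -0.15 and 0.0663, Hsf1 between -0.0174 and 0.0576 and Hspa9 between -0.0756 and 0.0011. Of the 64 tested members 17 were called over both batches as reported, 2 without a batch term and 33 with array weights. These settings gave 1 and 6 falling ER members (5 as reported), 0 and 5 rising ER members (1), 0 and 7 falling cytosolic members (3), and 1 and 12 rising cytosolic members (7). From the values as deposited 6 cytosolic members fell. With normexp fitted on all rows, an alternative chosen after seeing the data, 2 ER members rose, Bag5 was no longer called, and Dnajb9 (0.29), Dnajc16 (-0.14) and Hsp90aa1 (-0.37) moved by over 1.5 times, as Bag3 (0.52) did with array weights. The 2 calls in batch 2 became 5 without background correction, 5 with normexp without controls, 5 from the values as deposited and 0 without the detection filter. The 7 batch differences became 13 from the values as deposited and 13 with normexp on all rows. Without 1 array the ranges were 14 to 18 calls in all, 4 to 5 and 1 to 2 (ER falling and rising), 3 to 4 and 6 to 8 (cytosolic), 22 to 32 in batch 1, 0 to 0 in batch 2 and 3 to 8 between the batches. The cause of these changes was not tested.

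Same-numbered samples did not deviate together, with correlations of -0.26 to 0.04 over the 6 numbers. With the replicate number as a block 14 members were called over both batches, 27 in batch 1 and 0 in batch 2. Bag3, Dnajc16 and Hspd1 lost their calls under the block.

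Dim members (Hspa1b, Hspa2, Ahsa2, Bag2, Bag5, Cct7) have differences whose size depends on the background correction. Canx and Hsf1 were detected on 0 arrays of batch 2, at levels of 4.65 to 5.11 and 9.69 to 9.98. The tested members Atf6, Pdia2, Dnajb4, Dnajb5, Dnajb13 and Dnajc11 were also detected on 0 arrays of batch 2. Hspa4, Dnajc8, Bag4 and Dnajc19 were detected on 0 arrays of batch 1. Joined rows make detection counts a lower limit.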
